A study of Schizosaccharomyces pombe with 25 samples.

Results

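Convergent genes are neighbours on opposite strands whose 3′ ends point at each other, and their transcripts can run into each other tail to tail. In the fission yeast Schizosaccharomyces pombe, this report describes the convergent pairs of protein-coding genes whose annotated spans share at least 1 base. They were read from the gene annotation deposited with a chromatin immunoprecipitation sequencing series. Protein-coding genes of chromosomes I, IIc and III were sorted by the start of their span, and a pair was kept if adjacent genes had the left one on the forward strand, the right one on the reverse strand, and overlapping spans. Of 5120 adjacent coding pairs, 1399 were convergent and 856 of these overlapped (61.2%), which left 543 convergent pairs that did not. The overlapping pairs held 1712 of 5123 coding genes (33.4%).

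The series comprised 25 samples in 13 groups, in which a chromatin protein was precipitated. The centromeric histone CENP-A (Cnp1) was taken from pht1∆, swr1∆, msc1∆ and wild-type cells, each with and without cc2∆:cc1, the histone variant H2A.Z (Pht1) from swr1∆, msc1∆ and wild-type cells, and Swr1 and Msc1 from wild type alone. No sample enters the results, so no group is used, and the sequencing depth is unknown here. IIc is the name of chromosome II in the deposited annotation. To the left of its centromeric interval 632 of 641 coding sequences start at the RefSeq coordinate, and to the right 1211 of 1222 start 850 bases before it, so coordinates on IIc are given as deposited. All values are counts or lengths over the whole annotation of 1 genome. They have no replicates and no test, and differences between classes of pairs are descriptions.

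An mRNA carries a 3′ untranslated region (UTR) between its stop codon and its end, where it is cleaved and a poly(A) tail is added. Where convergent transcripts overlap, the RNAs share complementary sequence. In fission yeast, cohesin, the ring complex that holds sister chromatids together, is known to lie between convergent genes, and read-through transcription at such genes has been linked to RNA interference and to transient heterochromatin. Several genes of the RNA interference machinery are themselves known to be convergent in this species, which was known when the gene lists below were drawn up.

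The extreme form of overlap is one in which coding bases, and in some pairs the stop codons, are shared between strands. In 15 of the 856 pairs, coding bases of the left and right gene coincided, and in 6 of these the shared coding stretch was unbroken, of the same length in the RefSeq annotation and at most 30 bases long. These 6 are printed because they show how closely genes can be packed tail to tail. Each line gives 30 bases of the forward strand, 5′ to 3′, read from the RefSeq assembly ASM294v3 at its own coordinates, and capitals mark the bases that are coding in both genes. The capitals end with the stop codon of the left gene and begin with the stop codon of the right gene read in reverse complement.
SPAC1687.02/rfc4: tggtgccattaaaCTAAataataaaagact
SPAC29A4.14c/SPAC29A4.13: gttttgatgattgTTAActattaaatattc
msw1/peg1: gtttgagcgtataCTAAttcttttcatcag
SPBC17A3.08/aim22: taatcttttatCTAAATAGagtcagaaatc
dsc4/new13: tgttttaaCTAATCCCATTTGAtttgttcc
mug57/mug97: tTTATCTACACCAAGTATTCGAGAGTAGat

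In the first 3 of these pairs the genes shared 4 coding bases, which are made up of both stop codons, the stop codons themselves overlapping by 2 bases. In SPAC1687.02/rfc4 (chromosome I, 905116 to 905145) the left stop codon was TAA and the right one TAG, and the same was true of msw1/peg1 (chromosome I, 3152766 to 3152795). SPAC1687.02 is rce1 in the RefSeq gene table, a prenyl protease gene, and rfc4 encodes a subunit of the clamp loader replication factor C. In SPAC29A4.14c/SPAC29A4.13 (chromosome I, 5120860 to 5120889), the peroxisome gene pex3 and the urease accessory gene ure6 by their RefSeq symbols, TAA met TAA, and the shared bases are their own reverse complement. SPBC17A3.08/aim22 (chromosome II, 1417542 to 1417571) shared 8 coding bases, dsc4/new13 (chromosome I, 5373183 to 5373212) 14, and mug57/mug97 (chromosome II, 1020295 to 1020324) 27. aim22 encodes a lipoate-protein ligase and dsc4 a subunit of a ubiquitin ligase.

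In most of the other 9 pairs the shared coding sequence was longer. The longest were in SPCC338.03c/mug112, with 341 bases, and sro1/SPBC1347.14c, with 249 bases, which are pairs of short genes. Of these, SPCC338.03c and SPBC1347.14c encode proteins listed in RefSeq as uncharacterized. Each pair held a gene with neither UTR annotated, mug112 and SPBC1347.14c. In SPCC338.03c/mug112 the shared bases ran between the start codons of both genes, and both stop codons lay outside them. SPBC14C8.13/pol5 shared 104 coding bases, where pol5 serves ribosomal RNA processing, and SPAC3F10.09/map3 shared 84, where SPAC3F10.09 is the histidine synthesis gene his6 and map3 encodes a pheromone receptor. SPCC18.10/sdc1 shared 49, alp41/mug62 36, SPBC725.10/php2 27 and SPBC19G7.02/rps3002 18. sdc1 encodes a subunit of the Set1 histone methyltransferase complex, php2 a subunit of the CCAAT-binding factor and rps3002 a ribosomal protein. SPAC589.09/dam1 shared 2 coding bases. There the gene of the kinetochore protein Dam1 lay within the span of its partner, at the 5′ side, so again no stop codons met.

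The lengths of the overlaps fell into a pair of humps on a log scale. The median overlap was 180 bases. The shortest overlap was 1 base and the longest 7816 bases, and the middle of the distribution ran from 72 bases at the lower quartile to 1066 at the upper. Of the 24 equal steps on the log scale, the step from 69 to 99 bases held 101 pairs, the step from 216 to 316 bases only 38, and the step from 1468 to 2154 bases 79. Overlaps of 1 to 100 bases were found in 303 pairs and overlaps of more than 1000 bases in 227 (26.5%), which left 326 in the wide range between. In total the overlaps covered 584572 bases, or 4.65% of the 3 chromosomes.

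**Figure D1:**
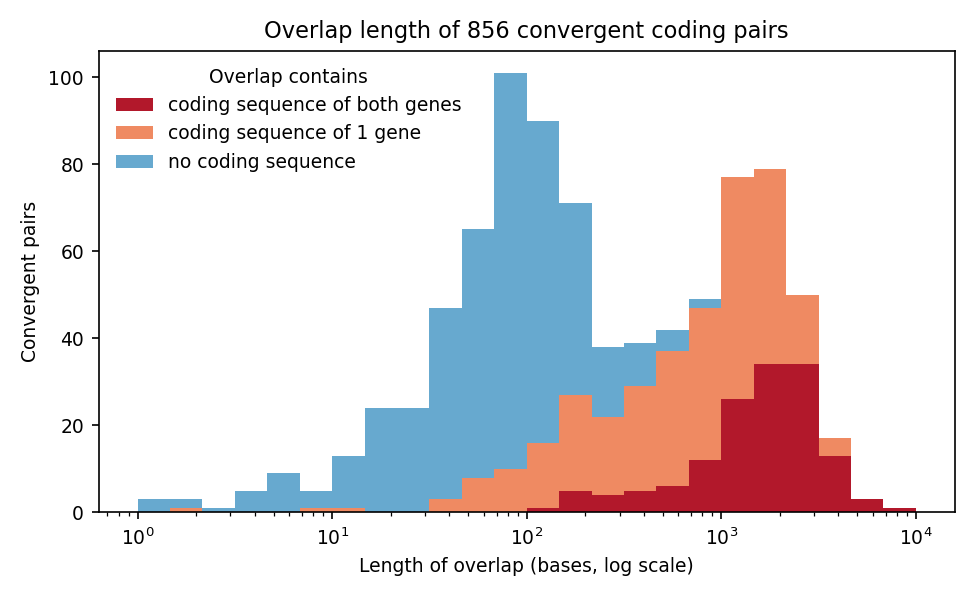
Length of the overlap in bases (log scale) of the 856 overlapping convergent pairs, as counts of pairs, stacked by whether the overlap contains coding sequence of both genes (red), of 1 gene (orange) or of neither (blue). The lower hump, with its peak of 101 pairs between 69 and 99 bases, is mostly blue, and the upper hump, above 1000 bases, holds no blue.

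The content of an overlap is tied to its length by definition, since an overlap holds coding sequence once it extends past the 3′ UTR of a partner. In 427 pairs (49.9%) the overlap held no coding base, so that only UTRs faced each other, with a median overlap of 76 bases. In 285 pairs (33.3%) it held coding bases of 1 of the genes, with a median of 763 bases, and in 144 pairs (16.8%) it held coding bases of both, with a median of 1729.5 bases. In all, 429 overlaps (50.1%) reached coding sequence. Of the 157 overlaps from 51 to 100 bases, 17 did so (10.8%), against 96 of the 108 from 401 to 1000 bases (88.9%) and all 227 above 1000 bases.

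Adjacent by start and facing in orientation did not always mean facing in coding order. In 828 of the 856 pairs the coding sequence of the left gene ended before that of the right gene began, the tail-to-tail order that the word convergent implies. In 15 pairs the coding spans overlapped, and in 13 the coding order was reversed, with the coding sequence of the right gene lying to the left of that of its partner. In such a pair the left gene starts first, so its 5′ UTR necessarily runs across the coding sequence of the right gene. The overlap thus holds 5′ UTR of the left gene against the 3′ UTR and coding sequence of the right gene. Examples are mrpl24/tam10, with an overlap of 657 bases, and rsv2/SPBC1105.13c, with 1438 bases. Only 2 of the 13 overlapped in the RefSeq annotation. The share of convergent pairs that overlapped was 60.4% with tail-to-tail order alone.

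Among the 1656 transcripts of the tail-to-tail pairs, 1128 (68.1%) ended before the stop codon of the partner. A further 342 (20.7%) ended inside the coding span of the partner, 99 (5.98%) ended in its 5′ UTR or at its start, and 87 (5.25%) ran past the place where the partner's transcript starts. The split between the 99 and the 87 uses the deposited 5′ end of the partner. RefSeq gave the same 5′ UTR length for only 51 of 1706 member genes. Where coding sequence was reached, in 528 cases, the median share of the partner's coding bases inside the overlap was 76.0%, and 186 transcripts were antisense to the whole of it. In 17 pairs each transcript covered the whole coding sequence of the other. One gene's span lay inside the other's in 105 of the 856 pairs.

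The longest overlap joined prp17, which encodes a splicing factor of the Prp19 complex, and fab1, which encodes the kinase that makes phosphatidylinositol 3,5-bisphosphate. Their spans shared 7816 bases of chromosome IIc (2650730 to 2658545). The stop codons were only 60 bases apart, the 3′ UTR of prp17 was 5911 bases long and that of fab1 1965, and each transcript covered all coding bases of the other. The 3′ UTR of prp17 was the longest of all members, at more than 3 times the length of its own coding sequence of 1677 bases.

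The second longest overlap, 6260 bases (IIc, 907370 to 913629), joined genes that both serve genome stability, rad3, the checkpoint kinase known as ATR in mammals, and swi1, a subunit of the replication fork protection complex. The 3′ UTR of swi1 was 4233 bases and that of rad3 2104, and the overlap held 58.0% of the coding bases of rad3 and 67.5% of those of swi1. Next came ams1, an alpha-mannosidase gene, with SPAC513.06c (dhd1 in the RefSeq table), at 5533 bases (chromosome I, 2914746 to 2920278), in which the coding sequence of each gene was covered whole. The tryptophan tRNA ligase gene msw1 and peg1, which encodes the microtubule-binding CLASP protein, shared 4831 bases and also the 4 coding bases shown above. alp41, which serves tubulin folding, had a 3′ UTR of 4972 bases, and its span took in the whole of mug62, with an overlap of 4574 bases.

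The other 5 of the 10 longest overlaps were between 3784 and 4445 bases. rrp2, which encodes a DNA translocase, and nta1, an N-terminal amidase gene, shared 4445 bases. prm1, a gene of cell fusion in mating, had a 3′ UTR of 4473 bases that covered the whole coding sequence of lys1, which encodes an enzyme of lysine synthesis, whereas the 3′ UTR of lys1 was 86 bases. esf2/lvs1 (3899 bases) and sid1/SPAC9G1.10c (3865 bases) were likewise lopsided. In esf2/lvs1 the 3′ UTR of esf2, which encodes a ribosome biogenesis factor, was 4119 bases and that of lvs1 47 bases, and in the other pair the 3′ UTR of the septation kinase gene sid1 was 4006 bases and that of SPAC9G1.10c 105. The tenth, adl1/SPBC713.07c, had 3784 bases, where adl1 encodes a DNA ligase and both 3′ UTRs were long, at 2491 and 1522 bases. bet4, listed as SPCC1620.05, had the fourth longest 3′ UTR among members (4338 bases), and its span held the whole of its partner SPCC1620.06c, so that the overlap was the 2329 bases of that gene.

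**Figure D2:**
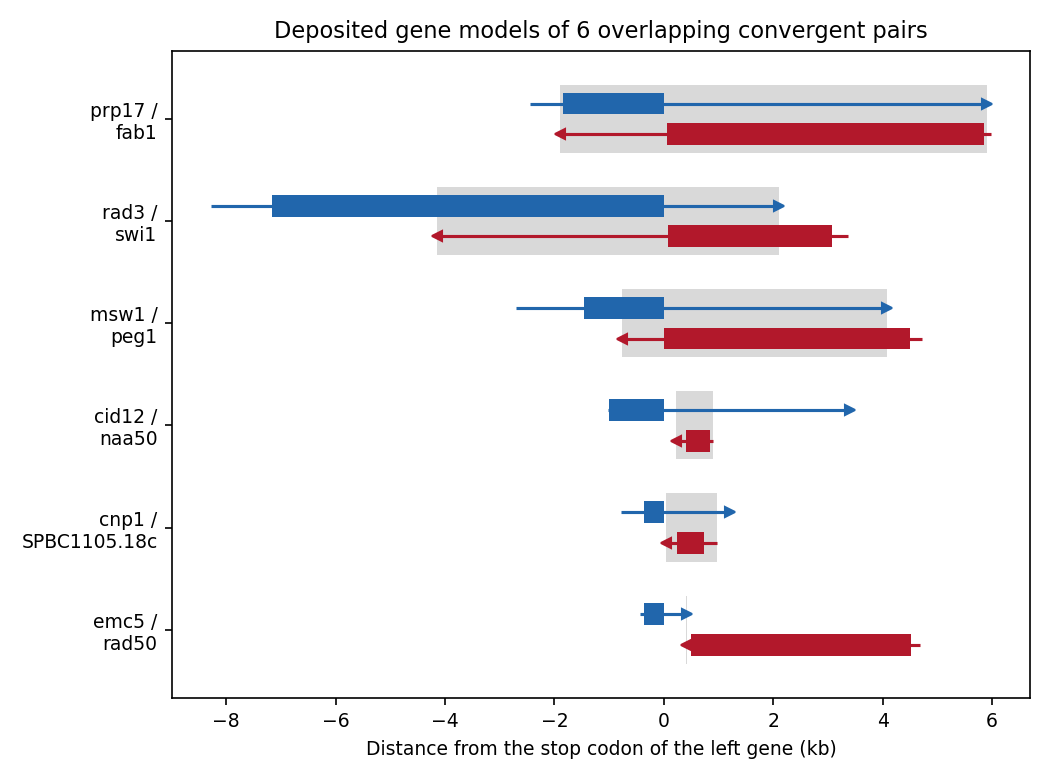
Gene models of 6 overlapping pairs as deposited, with the left gene in blue above the right gene in red. The horizontal axis is the distance in kb from the stop codon of the left gene, boxes span the coding sequence with any introns, lines the UTRs, arrowheads the 3′ ends, and grey the overlap. The overlap is 7816 bases in prp17/fab1, 939 in cnp1/SPBC1105.18c and 4 in emc5/rad50.

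At the other end of the range, 3 pairs overlapped by a single base. They were ubc7/SPBP16F5.05c, pma2/spt2 and mug170/pal1. The genes are a ubiquitin-conjugating enzyme and the ribosome biogenesis factor yar1 in the first, a proton pump and a histone chaperone in the second, and an arrestin family protein and a cell shape protein in the third. Then came rlp7/rad9 and SPBC11C11.10/SPBC11C11.11c at 2 bases. In SPBC11C11.10/SPBC11C11.11c the right gene had no annotated 3′ UTR, so that 2 bases of overlap already lay in its stop codon. On the far side of the threshold, 10 convergent pairs abutted with a gap of 0 bases, among them pis1/rtf2, gpi17/SPAC1F12.10c, cao1/SPAC2E1P3.05c, SPAC1610.01/SPAC1610.02c and pmk1/SPBC119.09c. There were 27 overlaps of 1 to 10 bases and 32 gaps of 1 to 10 bases, so the rule divides a continuous range of distances between transcript ends.

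Whether a pair overlaps depends on the distance between the stop codons and on the length of the 3′ UTRs, and the overlapping pairs differed from the others in both. The stop codons were a median of 317 bases apart in overlapping pairs, against 679 in convergent pairs that did not overlap. The combined length of both 3′ UTRs had a median of 685 bases in overlapping pairs and 409 in the others. For tail-to-tail pairs an overlap means by construction that the combined UTRs exceed this distance, as they did in 828 of 828 pairs, so these are parts of the rule and not separate findings. The share that overlapped was 91.0% (183 of 201) where the stop codons were 0 to 199 bases apart and 74.7% (327 of 438) at 200 to 399 bases. It was 62.3% (182 of 292) at 400 to 599 bases, 40.7% (92 of 226) at 600 to 999, 24.1% (34 of 141) at 1000 to 1999 and 13.7% (10 of 73) at 2000 bases or more. The combined 3′ UTR was not constant over this range. Its median was 1036 bases at the shortest of these distances, 392 at 200 to 399 bases and 1018 at 2000 bases or more.

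**Figure D3:**
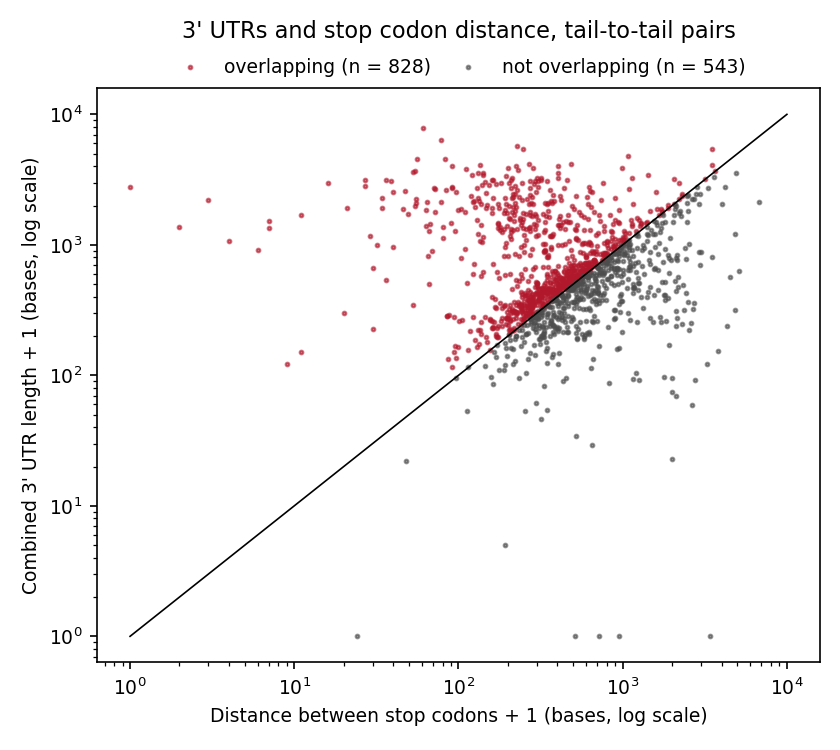
Combined 3′ UTR length of a pair against the distance between its stop codons, both in bases plus 1 on log scales, for 828 overlapping (red) and 543 non-overlapping (grey) pairs in tail-to-tail order. The line marks equality, which separates the classes by construction. Many red points lie close above the line, and a second group of red points lies far above it, mostly at combined lengths over 1000 bases.

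**Figure D4:**
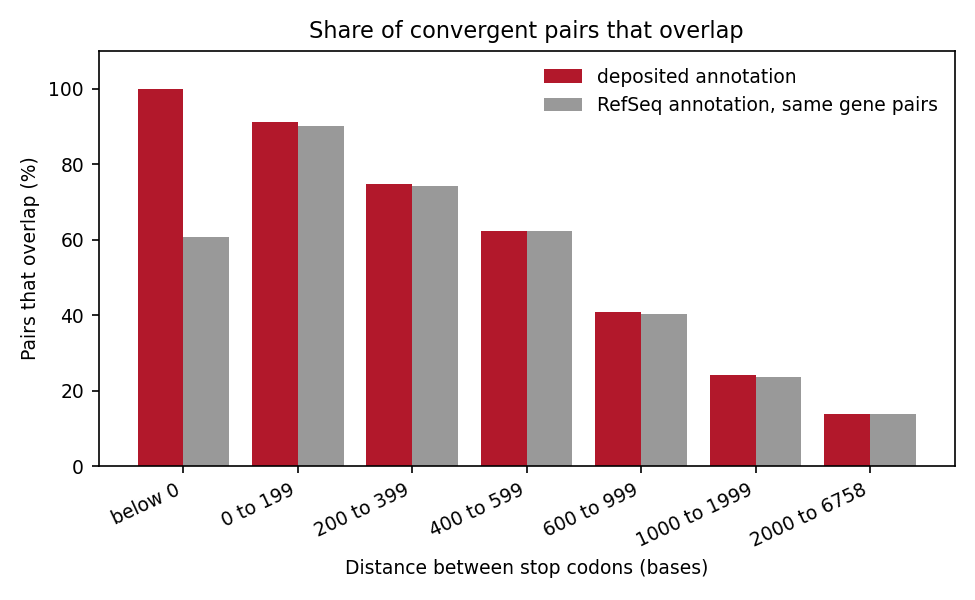
Percentage of convergent pairs that overlap by the distance between their stop codons in bases, in the deposited annotation (red) and for the same gene pairs in the RefSeq annotation (grey). The deposited share was 91.0% at 0 to 199 bases and 13.7% at 2000 bases or more. The class below 0 holds the pairs with overlapping or reversed coding spans, and 28 of 28 overlapped in the deposited annotation. Sorting by deposited span start fixes that value in advance. The pairs were not sorted again in RefSeq, where 60.7% of this class overlapped.

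Single 3′ UTRs of the 1712 member genes had a median length of 281 bases, against 180.5 in genes of convergent pairs that did not overlap, 252 in coding genes with no convergent coding neighbour and 245 over all coding genes. Since the rule depends on 3′ UTR length in tail-to-tail pairs, longer 3′ UTRs among members follow at least in part from the selection. The same holds for the upper tail. A 3′ UTR of more than 1000 bases was annotated for 297 members (17.3%), for 34 genes of pairs that did not overlap (3.13%) and for 107 genes with no convergent neighbour (4.60%). Over all coding genes it was annotated for 438 (8.55%). The 34 are not free of overlap with other coding genes. Among them is toe4, which does not overlap its partner mfs2 but whose long 3′ UTR holds SPAC11D3.06 on the opposite strand. How many of the 34 are of this kind was not counted. No 3′ UTR was annotated for 33 members (1.93%), against 109 of the 1086 genes of pairs that did not overlap. It was missing for 232 genes with no convergent neighbour (9.98%) and 374 of all coding genes (7.30%). In tail-to-tail pairs the combined 3′ UTRs must exceed the stop codon distance to overlap, so a missing one counts against membership by construction. Restricted to genes with a 3′ UTR, the medians were 284 bases for members and 200 for genes of pairs that did not overlap.

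The 3′ UTRs of a pair were often of unequal length, in overlapping pairs and in others. In the 823 overlapping pairs with both annotated, the longer was a median of 2.32 times the shorter, against 2.11 times in 439 pairs that did not overlap. The longer 3′ UTR of a pair had a median of 474 bases in overlapping pairs and 282 in the others, and the shorter 174 and 106. Medians by reach describe the classes only, since a transcript of a tail-to-tail pair reaches coding sequence if its 3′ UTR exceeds the stop codon distance. In the 274 such pairs where coding sequence of 1 partner was reached, the 3′ UTR of the reaching gene had a median of 1082 bases and that of the gene it reached 125.5. Pairs with only UTRs in the overlap had a median 3′ UTR of 240.5 bases and stop codons 420 bases apart. Where coding sequence of both genes was reached, the median 3′ UTR was 847.5 bases and the stop codons were 106.5 bases apart. An intron lay in the 3′ UTR of 31 members, so exonic 3′ UTRs were shorter than the spans there, but all 856 pairs shared exonic bases.

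**Figure D5:**
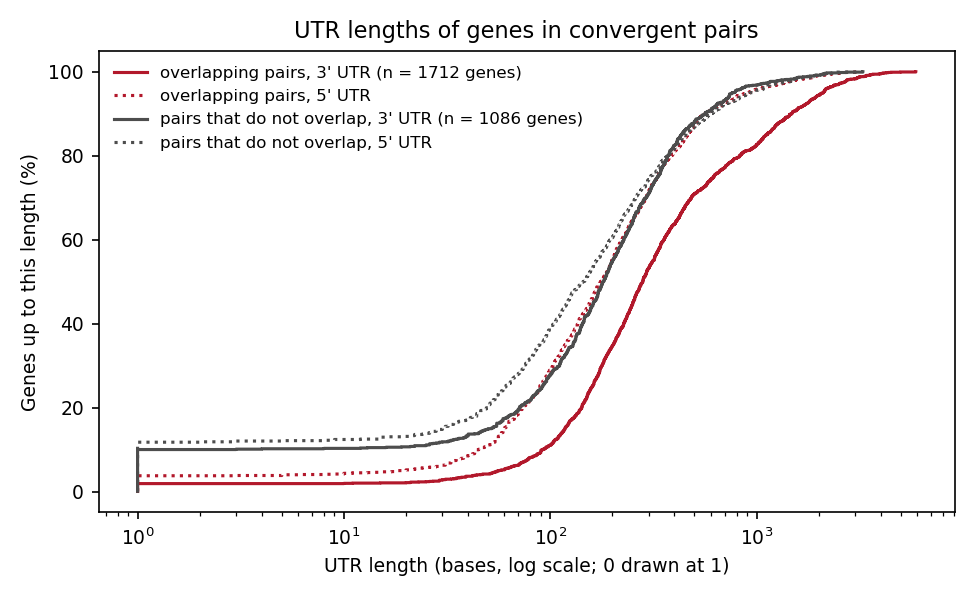
Cumulative percentage of genes by UTR length in bases (log scale, with 0 drawn at 1), for 1712 genes of overlapping pairs (red) and 1086 genes of convergent pairs that do not overlap (grey), with 3′ UTRs as solid and 5′ UTRs as dotted lines. The solid lines cross 50% at 281 and 180.5 bases, and the dotted lines at 175.5 and 144.5.

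The 5′ ends also enter the rule, through the span of a gene, as the 13 pairs of reversed coding order show. The 5′ UTR had a median of 175.5 bases in members and 144.5 in genes of convergent pairs that did not overlap. No 5′ UTR was annotated for 65 members and for 128 genes of the others (11.8%), so missing 5′ ends moved with this difference, and their part in it was not tested. With genes lacking a 5′ UTR left out, the medians were 187 and 174 bases. The rule did not use coding length, which had a median of 1137 bases in members, 1069.5 in genes of pairs that did not overlap and 1137 over all coding genes. More than 1 exon was annotated for 54.3% of members, 45.4% of the genes of pairs that did not overlap and 48.9% of all coding genes. A name other than the systematic identifier was missing for 37.8% of members and 37.4% of the others. A coding gene other than the partner overlapped 20.4% of members and 19.0% of genes in the other convergent pairs. Annotated non-coding genes touched 37 of the 856 overlap segments (4.32%), and 6 of the 227 segments over 1000 bases. No such count was made outside the overlaps, so this share has no background and cannot be called low or high.

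Overlap was more frequent in convergent pairs than in other arrangements of neighbours. Beside the 61.2% of convergent pairs, 320 of 2320 tandem pairs (13.8%) and 301 of 1401 divergent pairs (21.5%) overlapped. Orientation here follows the order of span starts. A forward gene inside the 3′ UTR of a reverse gene is thus counted as divergent, as with SPAC11D3.06 inside that of toe4. In 96 of the 301 divergent overlaps 1 gene lay inside the other, against 105 of the 856 convergent ones. The divergent overlaps are therefore not all head to head. The median overlap was 180 bases in convergent pairs, 62 in tandem and 527 in divergent pairs. In the RefSeq annotation the share was 60.0% for convergent pairs, 6.63% for tandem and 9.32% for divergent pairs, so the convergent share changed least between the annotations. The median overlap in RefSeq was 161 bases in convergent, 31 in tandem and 1238 in divergent pairs.

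The last 40 bases of the transcripts, read from RefSeq at its own coordinates, were searched on the transcript strand for AATAAA, the poly(A) signal best known from animals. Only genes whose 3′ UTR was at least as long as this window were counted. AATAAA was found in 17.1% of 1640 members and 15.5% of 940 genes of pairs that did not overlap. It was found in 12.2% of 2053 genes with no convergent coding neighbour and in 14.6% of all 4633 genes. Among members it was found in 12.0% of those with a 3′ UTR over 1000 bases and in 18.2% of the rest. A and T made up 68.4% of the window in members with such long 3′ UTRs and 73.2% in the other members. By reach, it was found in 18.7% of members of pairs with only UTRs in the overlap, 15.8% where coding sequence of 1 gene was reached and 14.6% where that of both was.

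The 3 chromosomes were alike in the share of convergent pairs that overlapped, with 387 of 640 on chromosome I (60.5%), 323 of 517 on IIc (62.5%) and 146 of 242 on III (60.3%). The median overlap was 180, 164 and 221 bases. Overlaps that reached coding sequence made up 49.1% on I, 54.8% on IIc and 42.5% on III. On III they were 21 of 65 to the left of the centromeric interval, taken as the longest stretch without coding genes, and 41 of 81 to its right, with median overlaps of 117 and 403 bases. The share of convergent pairs that overlapped ranged from 57.6% to 63.2% over the 6 arms.

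Of the 6 coding genes at the edges of the 3 centromeric intervals, 3 belonged to overlapping pairs, 1 at each interval, against 33.4% of all coding genes. The other 3, per1, rpb1 and SPCC4B3.18, had no convergent coding neighbour. On chromosome I the pair was emc5/rad50, with emc5 starting on the base after the interval. emc5 encodes a membrane protein complex subunit and rad50 a DNA repair protein, and they overlapped by 4 bases (3791753 to 3791756), with no coding sequence reached. On IIc the pair was yox1/rec6, a transcriptional corepressor and a meiotic recombination gene. The 3′ UTR of yox1 was 1307 bases and covered rec6 whole, with an overlap of 724 bases (1648098 to 1648821). In RefSeq the same genes were 107 bases apart. On III the pair was chk1/meu27, with the checkpoint kinase gene chk1 carrying a 3′ UTR of 2668 bases over the whole coding sequence of meu27 (overlap 2693 bases, 1061503 to 1064195).

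Of the 4 genes of the proteins studied in the series, cnp1 and msc1 belonged to overlapping pairs. cnp1, the gene of CENP-A, had a 3′ UTR of 1200 bases, more than 3 times its coding sequence of 363 bases. It covered the whole of SPBC1105.18c (pth3 in the RefSeq table, a peptide release factor gene), with an overlap of 939 bases (IIc, 3538145 to 3539083) and stop codons 240 bases apart. msc1 and met11, a methylenetetrahydrofolate reductase gene, overlapped by 80 bases within their UTRs (chromosome I, 1658316 to 1658395). pht1, the gene of H2A.Z, was convergent with cdc2, the cell cycle kinase gene, with a gap of 107 bases. swr1 had no convergent coding neighbour.

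Across 8 gene lists, 26 of 83 genes (31.3%) lay in overlapping pairs, against the background of 33.4% over all coding genes. These lists were chosen with knowledge of the biology and of earlier results on these data, and no test was made. The overlaps of these 26 pairs reached coding sequence in 16, and those of all 856 pairs in 50.1%. Among 15 genes of RNA interference and heterochromatin, 7 belonged to overlapping pairs (46.7%), and 6 of these 7 overlaps reached coding sequence, against the 50.1% of all overlapping pairs. With so few genes, nothing particular to the list is read from these counts. spn6/dcr1, with the gene of Dicer, overlapped by 1903 bases with stop codons 20 bases apart. rik1, of the CLRC ubiquitin ligase, shared 3703 bases with SPCC11E10.09c, whose 3′ UTR of 3571 bases ran across 98.8% of the coding bases of rik1. eri1, a nuclease gene that limits RNA interference, shared 2234 bases with mmm1, and the helicase gene hrr1 1321 bases with SPCC1739.04c. The 3′ UTR of the polymerase gene cid12 was 3401 bases and covered naa50, with an overlap of 683 bases. stc1, the link between RNA interference and CLRC, had its coding sequence covered whole by the 3′ UTR of mug30, with an overlap of 842 bases, and arb2/crb3 overlapped by 24 bases. ago1 and rdp1, the genes of Argonaute and of the RNA-dependent RNA polymerase, were convergent with mmi1 and ade3 but separated from them by 17 and 29 bases, and the other 6 had no convergent coding neighbour.

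Of 11 cohesin genes 3 were members (27.3%, below the 33.4% of all coding genes), and the 3 overlaps reached coding sequence, as did 50.1% of all. rad21, the kleisin subunit gene of mitotic cohesin, shared 962 bases with pof3 and psc3 1175 bases with SPAC607.02c, whereas eso1, which encodes the cohesin acetyltransferase, shared 199 bases with SPBC16A3.12c. The other 8 had no convergent coding neighbour. Of 13 kinetochore and CENP-A loading genes, 2 were members (15.4%), mis16 (83 bases) and mis17 (67 bases), and no coding sequence was reached. mis17 is an example of a short overlap over a wide gap, since the stop codons were 2299 bases apart and its partner SPBC21.03c had a 3′ UTR of 2113 bases.

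Of 11 Swr1 complex genes 4 were members (36.4%), swc2 (100 bases), swc4 (1067 bases, across 72.1% of its coding bases), rvb1 (284 bases) and rvb2 (150 bases). Of 13 genes of 3′ end formation and termination 4 were members (30.8%). Their overlaps were 37 bases for cft2, 45 for the poly(A) polymerase gene pla1, 154 for the exonuclease gene dhp1 and 180 for pcf11. The median over all overlapping pairs was 180 bases. Of 14 cell division genes 4 were members (28.6%). The B-type cyclin gene cdc13 shared 8 bases with dsh1, which lacked an annotated 3′ UTR. The transcription factor gene cdc10 shared 471 bases with vps52, the separase gene cut1 105 with SPCC5E4.05c, and the cyclin gene cig2 1459 with SPAPB2B4.04c, a calcium pump gene. nmt1/gut2, a convergent pair known from studies of transcription termination, was separated by 1068 bases.

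The same pairs were looked up in RefSeq by gene identifier. Of 853 overlapping pairs found there on the same strands, 835 overlapped as well (97.9%), and of 535 pairs that did not overlap 1 did. Among the 835, the overlap had the same length in 725, was shorter in RefSeq in 96 and longer in 14. Among pairs in tail-to-tail order, 818 of 825 overlapped in both. Of 226 overlaps over 1000 bases, 215 exceeded 1000 bases in RefSeq, and 9 did not overlap there. Of these 9, 6 were pairs in reversed coding order. The other 3 included adh1/SPCC13B11.02c, with 2894 bases in the deposited annotation and a gap of 512 bases in RefSeq. The 3′ UTR had the same length in both annotations for 1695 of 1706 member genes, whereas the 5′ UTR did so for 51, being shorter in RefSeq for 1403. RefSeq names PomBase as the source of its annotation, so like 3′ ends are not separate evidence for them. With RefSeq 5′ ends the median 5′ UTR was 94 bases in members and 74 in genes of pairs that did not overlap.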

How the data were processed

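The members and gene lists were chosen with earlier results of these data known. Per the submitters' processing notes, reads were handled with BWA, Bowtie2, SAMtools, deepTools 2.5.3 and bedtools on build ASM294v2, but no read-derived value was used here. Of 3 deposited files, 2 were used. The annotation holds 32869 rows of feature positions as the authors deposited them, and the other lists sequence lengths. The third holds only sequence names. The labels and file headers do not say how the annotation was built.

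A gene's span ran from its first to its last exon base, over all transcripts (1 coding gene had 2). The 3′ UTR ran from the base after the stop codon to the transcript end, introns included. Overlaps were cut at the inner gene where 1 span lay inside the other. An overlap reached coding sequence if it shared a base with a coding or stop codon row. Of 5123 coding genes 2 had no stop codon row. RefSeq genes (ASM294v3) were matched by identifier, and 1388 of 1399 convergent pairs were found. RefSeq sequence was read only at RefSeq coordinates. Gene roles come from RefSeq product names or general knowledge.

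Named pairs were the 10 longest and 5 shortest overlaps, the 5 smallest gaps, pairs with shared coding bases (10 by rule, with 5 more added later), the 5 longest 3′ UTRs, the pair nearest each centromeric interval and pairs with listed genes. Reversed pairs, the RefSeq exception adh1 and the listed genes outside overlapping pairs were named after their values were seen. On simulated annotation, 500 of 500 convergent pairs were recovered with the right overlap. These were separate tail-to-tail pairs of unspliced genes with UTRs. Nested or reversed pairs, shared coding bases and introns were not simulated. Python 3.11.15, numpy 2.4.6, scipy 1.17.1 and matplotlib 3.10.9 were used.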

Additional observations from a re-analysis of the deposited data

How the results depend on the processing

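Alternatives were run for 7 results, giving 92 values, of which 71 stayed within a set limit. The limit was 1.5 times for counts and a 95% interval for shares and medians. This interval treats the pairs as if they were a sample and serves only as a measure of size. For the 3′ UTR medians it treats single genes so and ignores their pairing. A minimum overlap of 50 bases gave a share of 50.96%, a median overlap of 317 bases, a median 3′ UTR of 309 and a median stop codon distance of 293. A minimum of 100 bases gave 556 pairs, 39.74%, 667.5 bases, 379 bases and 279.5 bases for the same measures. Coding spans in place of transcript spans gave 19 pairs, 1.352% and a median of 35 bases. Leaving out chromosome I gave 469 pairs with 239 reaching coding sequence, and leaving out IIc gave 533 and 252. With genes of every biotype between neighbours counted, the share was 64.85%. Without pairs in which 1 gene lay inside the other, the share was 58.04% and the median overlap 139 bases. Without pairs lacking a 3′ UTR, the share was 65.21% and the median 3′ UTR of pairs that did not overlap 200 bases. Tail-to-tail order alone, an alternative added after the data were seen, moved none of the 7 results beyond these limits. No paired analysis was possible because no sample enters any result.

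The results describe an annotation and not transcripts seen in these strains. Annotated ends depend on the evidence behind them, which is not given in the deposited files, and each gene but 1 had a single transcript, so alternative ends are not represented. How much of each RNA ends at the annotated place cannot be read from a gene model. With no replicates and a complete list of pairs, no p-value was computed. Sequencing depth does not bear on any value.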
